A study of Arabidopsis thaliana with 8 samples.

Results

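A set of 139 nuclear genes was expressed in wild-type Arabidopsis thaliana endosperm and was listed at no more than 25% of the wild-type level in both crosses whose mother lacked NRPD1. NRPD1 is the largest subunit of RNA polymerase IV, which makes the precursors of small interfering RNAs in RNA-directed DNA methylation. Of 37329 genes listed, 30177 were nuclear and lay outside the 12 regions where the mutant Ler line still carried Col-0 sequence, and 11170 of these had a wild-type level of at least 2 FPKM (fragments per kilobase of transcript per 1e6 fragments) in both tables used. The 139 members, 1.24% of the 11170 expressed genes, were chosen by these same values, so their low levels in both maternal-mutant genotypes are the rule and not a finding. Among expressed genes taken singly, 355 (3.18%) were at or under 25% of wild type in the full mutant and 400 (3.58%) in the maternal mutant.

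Endosperm was taken 7 days after pollination from crosses written as female by male. WT was Ler x Col-0, mat nrpd1+/- was Ler nrpd1-/- x Col-0, pat nrpd1+/- was Ler x Col-0 nrpd1-/-, and nrpd1-/- came from a cross in which both parents were nrpd1-/-. All seeds shared a Ler mother and a Col-0 father, and all mutant Ler mothers came from one introgressed line. The sample list holds 3 mat nrpd1+/- libraries, 3 nrpd1-/- libraries and 2 WT libraries, whereas pat nrpd1+/- entered only as a column of the deposited tables. Each of 3 tables gave 1 value pooled by the authors for WT and 1 for a mutant, so that no spread between replicates, SD or test could be computed for any value below, and the depth of the libraries is unknown. Fewer cells of a type and less RNA per cell cannot be told apart in such tissue RNA.

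The endosperm nourishes the embryo and carries more maternal than paternal genomes, and it passes from a syncytial through a cellularised stage before reserves accumulate. Small cysteine-rich secreted peptides, wall-modifying enzymes and lipid-transfer proteins are typical products of seed and reproductive tissues, and all of these recur among the members. NRPD1 itself was at 2.08 FPKM in nrpd1-/- against 4.34 in WT, at 2.08 in mat nrpd1+/- against 2.28, and at 0.845 in pat nrpd1+/- against 2.01. It was therefore at 48.0%, 91.5% and 42.0% of WT, and the gene lies inside one of the regions of residual Col-0 sequence. Of 25 endosperm marker genes 8 lay in those regions, and of the other 17 only HDG3 reached 2 FPKM in both WT columns. Within the regions the endosperm genes SUC5 (133 and 203 FPKM in the WT columns of the nrpd1-/- and mat tables), ALE1 (98.1 and 61.9) and ZOU (67.4 and 56.8, listed as RGE1) were well above that floor, and YUC10 was at 12.9 and 6.17. The other 4 of those 8 did not reach it in both columns, with FIS2 at 2.35 and 1.10, PHE1 at 0 and 1.51, PHE2 (listed as AGL38) at 0.0409 and 0.905 and MINI3 (listed as WRKY10) at 0 in both. Outside the regions the syncytial-stage gene AGL62 was at 0.0382 and 0.112.

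Of the members, 11 (7.91%) encoded defensin-like or other low-molecular-weight cysteine-rich (LCR) peptides, a class that made up 0.519% of expressed genes. These are short secreted peptides held together by disulphide bridges between cysteines. Their coding sequences, with the in-frame cysteine codons TGT and TGC in capitals and the rest in lower case, show what the class shares, and the sequences below were read 5' to 3' from the RefSeq TAIR10.1 assembly with introns removed. LCR49 (AT2G33233, chr2:14083144-14083578, minus strand), AT1G13607 (chr1:4660778-4661098, plus strand), LCR45 (AT4G39917, chr4:18515213-18515602, plus strand) and LCR28 (AT5G42797, chr5:17163196-17163574, plus strand) each had 2 coding exons and 8 cysteine codons. AT5G50345 (chr5:20497401-20497744, plus strand), annotated as a maternally expressed family protein and counted outside the class, had 9.
LCR49: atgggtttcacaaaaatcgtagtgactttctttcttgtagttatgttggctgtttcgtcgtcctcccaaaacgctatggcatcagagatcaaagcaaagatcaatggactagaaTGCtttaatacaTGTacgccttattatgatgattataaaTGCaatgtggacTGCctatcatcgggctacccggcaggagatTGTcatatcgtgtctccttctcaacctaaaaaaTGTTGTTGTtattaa
AT1G13607: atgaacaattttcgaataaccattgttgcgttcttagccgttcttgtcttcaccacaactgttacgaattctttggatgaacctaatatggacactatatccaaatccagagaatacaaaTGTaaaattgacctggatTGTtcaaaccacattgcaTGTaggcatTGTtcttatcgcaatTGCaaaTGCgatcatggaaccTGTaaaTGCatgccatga
LCR45: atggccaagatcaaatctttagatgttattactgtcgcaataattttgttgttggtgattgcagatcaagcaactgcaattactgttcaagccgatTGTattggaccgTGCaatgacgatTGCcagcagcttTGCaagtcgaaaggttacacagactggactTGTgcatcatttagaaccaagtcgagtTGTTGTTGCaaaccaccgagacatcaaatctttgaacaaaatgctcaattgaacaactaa
LCR28: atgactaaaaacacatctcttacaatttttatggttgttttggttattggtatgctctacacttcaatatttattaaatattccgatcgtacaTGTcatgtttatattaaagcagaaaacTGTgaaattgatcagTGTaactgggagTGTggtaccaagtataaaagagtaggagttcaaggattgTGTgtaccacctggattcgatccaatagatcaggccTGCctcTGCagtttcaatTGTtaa
AT5G50345: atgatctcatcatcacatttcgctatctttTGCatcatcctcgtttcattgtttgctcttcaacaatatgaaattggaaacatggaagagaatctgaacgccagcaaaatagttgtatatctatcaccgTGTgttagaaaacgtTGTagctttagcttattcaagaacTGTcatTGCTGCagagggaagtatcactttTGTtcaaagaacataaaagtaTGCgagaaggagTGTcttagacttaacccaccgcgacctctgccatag

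The 11 peptides were 72 to 103 residues long, with a median of 81, and had 8 to 14 cysteine codons with a median of 8. The other 47 expressed genes of the class had the same medians, with 67 to 139 residues and 6 to 17 cysteine codons, so length and cysteine number did not set the members apart within their class.

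LCR49 was at 142 FPKM in WT and 20.5 in nrpd1-/-, at 1390 in WT and 94.8 in mat nrpd1+/-, and at 1211 in WT and 1020 in pat nrpd1+/-. AT1G13607 was at 218 and 38.6 FPKM, at 1038 and 51.7, and at 903 and 769 in the same order. AT3G16895, a cysteine-rich protein gene, was at 191 and 46.3, at 1259 and 113, and at 1096 and 860. These 3 were the most abundant of the class among the members, and each stood at 78.5% to 85.1% of WT when only the father was mutant. LCR28 was at 3.67 and 0.245 FPKM, at 155 and 1.68, and at 135 and 144, so that it was the lowest of the 11 relative to WT in mat nrpd1+/- (1.08%) and the only one above WT in pat nrpd1+/- (106%). LCR45 was at 38.6 and 9.36, at 247 and 10.4, and at 215 and 139. AT1G47317 was at 27.0 and 6.01, at 178 and 5.47, and at 155 and 107. AT1G13605, which lies 1663 bases from AT1G13607 on chromosome 1, had the lowest pat value of the 11 relative to WT (51.4%), with 55.7 FPKM in WT and 28.6 in pat nrpd1+/-. The remaining 4, LCR22, LCR47, LCR53 and LCR76, were between 2.03 and 5.35 FPKM in the WT of the nrpd1-/- table and between 9.40 and 32.3 in the WT of the mat table.

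All 11 were lower relative to WT in mat nrpd1+/- (median 4.98%) than in nrpd1-/- (median 17.7%), as were 59.0% of members and 52.6% of expressed genes. These are the ratios the rule used. All 11 also had a lower WT value in the nrpd1-/- table than in the mat table, by a median of 2.52 on the log2 scale after both WT columns were scaled to a median ratio of 1. The ratios of a gene are thus set against different WT levels. In all 11 the mutant values of the 2 tables lay closer together than the WT values did. A lower ratio on a higher WT value in the mat table largely implies this, and the rule used the same values. In pat nrpd1+/- 10 of the 11 were below WT, against 48% of expressed genes, with a median of 69.1%, and none was at or under 50%. Over all 58 expressed genes of the class, 11 were at or under 25% of WT in nrpd1-/-, 39 in mat nrpd1+/- and none in pat nrpd1+/-. At least 4-fold above WT were 4 in nrpd1-/- and 1 in mat nrpd1+/-. LCR40 was at 2201% of WT in nrpd1-/- and 780% in mat nrpd1+/-. The medians of the 58 log2 ratios, computed as log2 of mutant plus 0.1 FPKM over WT plus 0.1 FPKM, were -1.03, -3.06 and -0.51.

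**Figure D1:**
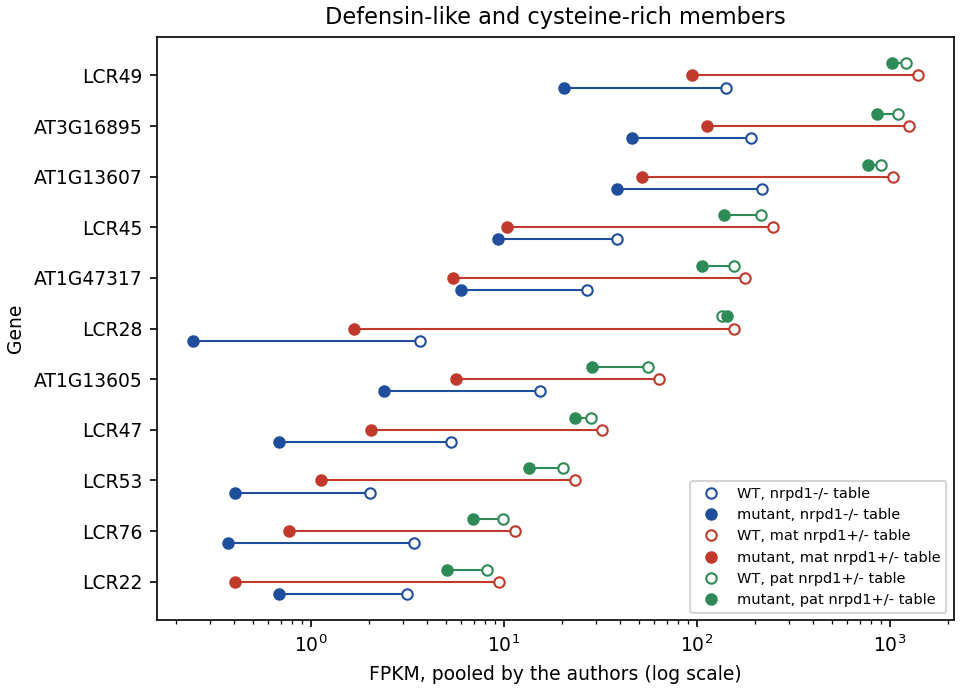
Levels of the 11 defensin-like or cysteine-rich members in FPKM on a log axis, with open circles for WT, filled circles for the mutant and 1 colour per table. Each point is 1 value pooled by the authors; in the nrpd1-/- and mat tables every filled circle lies left of its open circle by the rule, and 10 of 11 do in the pat table, by less.

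The promoters of LCR49 and AT3G16895 are shown for the TATA-box letters in them. Each line gives the 250 bases before the annotated start, with TATAAA in capitals, at chr2:14083615-14083864 for LCR49 and chr3:5771545-5771794 for AT3G16895, both read on the minus strand.
LCR49 promoter: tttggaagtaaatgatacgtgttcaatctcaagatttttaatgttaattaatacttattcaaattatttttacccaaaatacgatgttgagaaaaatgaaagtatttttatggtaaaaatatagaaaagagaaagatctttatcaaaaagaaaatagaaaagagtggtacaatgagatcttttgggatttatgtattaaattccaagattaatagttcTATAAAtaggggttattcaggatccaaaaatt
AT3G16895 promoter: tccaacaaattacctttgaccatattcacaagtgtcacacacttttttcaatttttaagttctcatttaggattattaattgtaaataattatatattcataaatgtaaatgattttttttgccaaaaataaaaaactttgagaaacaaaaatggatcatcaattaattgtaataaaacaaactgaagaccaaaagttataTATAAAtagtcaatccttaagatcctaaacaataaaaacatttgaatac

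TATAAA began 32 bases before the start in LCR49 and 49 bases before it in AT3G16895. In windows from 250 bases before to 50 after the start, read on both strands, TATAAA occurred in 7 of the 11 peptide members, in 76 of all 139 members (54.7%) and in 49.8% of expressed genes. The RY letters CATGCA, known from seed-specific promoters, occurred in 13.7% of members, 7.56% of expressed genes and 10.4% of all nuclear genes, and in none of the 11 peptide genes. Without the 4 members described below whose mutant values were not estimated, the members' share was 11.9%. The G-box CACGTG was found in 5.76% of members against 9.14% of expressed genes, and the W-box letters TTGACC in 15.1% against 14.1%. GCCGCC was found in 0.719% against 2.60% and TGTCTC in 12.9% against 12.8%. The CArG-like motif, CC and GG with any 6 bases between them, was found in 21.6% against 23.0%. A CArG-like match may overlap any of the other motifs, and these shares describe the letters only.

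Genes of the cell wall formed the next class, with 13 members (9.35% of members against 1.95% of expressed genes). XTH11, a xyloglucan endotransglucosylase/hydrolase of the family that cuts and rejoins wall xyloglucan, was at 105 FPKM in WT and 22.6 in nrpd1-/-, at 264 and 27.3 in the mat table, and at 232 and 321 in the pat table. AT3G18180, a family 61 glycosyltransferase, was at 85.3 and 9.85, at 163 and 25.4, and at 143 and 121. AT2G01610, of the pectin methylesterase inhibitor family that holds back the de-esterification of pectin, was at 62.2 and 15.3, at 187 and 27.0, and at 165 and 241. These 3 were thus at 84.7% to 146% of WT in pat nrpd1+/-. A second gene of that inhibitor family, AT4G15750, was at 7.89 and 1.57, at 207 and 3.26, and at 180 and 632, the highest of all members relative to WT in pat nrpd1+/- (3.51 times WT). ELP, an extensin-like protein gene, was at 11.7 and 1.43, at 31.1 and 1.09, and at 27.2 and 91.8. TBL38 and TBL1 belong to the trichome birefringence-like family, which is known for wall polysaccharide acetylation, and were at 201% and 73.7% of WT in pat nrpd1+/-. Of 19 expressed TBL genes 2 were members, and of 6 expressed XTH genes 1. Medians in nrpd1-/- and mat nrpd1+/- were 91.2% and 72.0% of WT for TBL and 64.6% and 261% for XTH. Over the 216 expressed wall genes with estimates in both maternal mutants, 17 were at or under 25% of WT in nrpd1-/- and 6 at least 4-fold above it. In mat nrpd1+/- these counts were 21 and 14. AT1G09550, AT1G11070, AT4G03945 and the fasciclin-like arabinogalactan protein gene FLA5 were at 58.5% to 104% of WT in pat nrpd1+/-.

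The other 2 wall genes, EPR1 and AT5G59170, and the seed storage albumins SESA2 and SESA3 met the rule only through values that were not estimated. All 4 were listed at 0 in nrpd1-/- and in mat nrpd1+/- with the status that Cuffdiff gives to a locus holding too many fragments to process. EPR1, an endosperm extensin, was at 4677 FPKM in the WT of the nrpd1-/- table and 1456 in the WT of the mat table, and AT5G59170 at 2222 and 1332. SESA3 was at 3285 and 514, and SESA2 at 1320 and 291. The pat table did estimate them, at 277 FPKM for EPR1 (21.5% of WT), 1025 for AT5G59170 (87.4%), 201 for SESA3 (44.0%) and 39.7 for SESA2 (15.4%). That status stood at 17 genes of the nrpd1-/- table, 15 of the mat table and 4 of the pat table, each of which was listed at 0 in at least one genotype. The zeros of these 4 members are no measure of loss, and 135 members had an estimate in every column.

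The lipid class, drawn by words in product names, held 7 members (5.04% against 1.26%). LTP4, a lipid transfer protein gene, was at 404 FPKM in WT and 54.5 in nrpd1-/-, at 1184 and 94.7 in the mat table, and at 1034 and 1319 in the pat table. AT5G09370, another lipid-transfer protein gene, was at 81.9 and 13.6, at 353 and 28.0, and at 308 and 261, the only one of the 7 below WT in pat nrpd1+/-. AT1G18280 and AT4G22630 of the same superfamily were at 160% and 173% of WT in pat nrpd1+/-. The polyketide cyclase-like genes AT1G24010 and AT4G23670 were at 226% and 175%. AT1G26220, an acyl-CoA N-acyltransferase gene, entered the class only by the word acyl-CoA, and its product name mentions no lipid. It was listed at 0 in both maternal mutants from 6.32 and 12.3 FPKM in WT and at 232% of WT in pat nrpd1+/-. It shares its locus in the files with 6 other genes.

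Transcription factors were encoded by 6 members (4.32% against 2.63%). HDG3, an HD-ZIP class IV homeodomain factor of the endosperm, was at 9.93 FPKM in WT and 1.14 in nrpd1-/-, at 31.7 and 2.28 in the mat table, and at 27.9 and 14.4 in the pat table. It stood at 51.7% of WT in pat nrpd1+/-, the lowest of the 6. Its relative HDG9 was at 5.08 and 0.956, at 8.13 and 0.987, and at 7.17 and 6.89, whereas the epidermal family members HDG1, HDG2 and HDG12 were at 86.1% to 138% of WT in nrpd1-/- and at 154% to 225% in mat nrpd1+/-. GATA29 was the most abundant of the 6 in WT, at 52.7 and 8.88, at 196 and 10.6, and at 172 and 282. FLP, a MYB factor known from stomatal development, AT3G52550 of the OVATE repressor family and AT5G51190, an AP2/ERF-type gene, were at 82.8% to 127% of WT in pat nrpd1+/-. AT5G51190 was listed at 0.0035 FPKM in nrpd1-/- and 0 in mat nrpd1+/-, from 2.74 and 4.48 in WT, in a locus shared with another gene.

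Transporters or channels numbered 5 members (3.60% against 2.82%), a share near that of expressed genes. The sugar carrier gene AT1G19450 was at 220 FPKM in WT and 46.3 in nrpd1-/-, at 303 and 53.3 in the mat table, and at 267 and 305 in the pat table. SWEET8, a sugar efflux carrier known from pollen wall formation, was at 4.04 and 0.992, at 6.37 and 0.828, and at 5.57 and 10.1, and was the only member among 6 expressed SWEET genes. The glutamate receptor gene GLR2.4, the MATE efflux gene AT1G33110 and AT3G25280 were at 73.9% to 93.5% of WT in pat nrpd1+/-. The ubiquitin-linked class of F-box, FBD-like and SKP1-like products held 3 members (2.16% against 1.15%). These were the SKP1-like gene SK13, the F-box gene FBS2 and the FBD-like AT5G62970, at 144% to 153% of WT in pat nrpd1+/-.

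Early nodulin-like (ENODL) genes contributed 3 members, which encode small membrane-bound copper-protein relatives of the plant cell surface. ENODL15 was at 298 FPKM in WT and 65.9 in nrpd1-/-, at 1594 and 172 in the mat table, and at 1395 and 2063 in the pat table. ENODL14 was at 330 and 72.7, at 661 and 164, and at 577 and 910. ENODL13 was at 25.6 and 6.15, at 130 and 16.6, and at 114 and 148. The family held 11 expressed genes, with medians of 48.8% of WT in nrpd1-/-, 36.6% in mat nrpd1+/- and 136% in pat nrpd1+/-, and the 3 members were at 130% to 158% in the last.

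Among members of no larger class, several were abundant. GILT, a lysosomal thiol reductase-like gene, was at 413 FPKM in WT and 33.0 in nrpd1-/-, at 1374 and 108 in the mat table, and at 1200 and 2965 in the pat table. AT5G54530, a putative serine protease gene, was at 364 and 66.8, at 1735 and 144, and at 1527 and 2866, and AT3G15450, an aluminium-induced protein gene, at 483 and 79.5, at 612 and 100.4, and at 542 and 1012. All 3 were thus above WT in pat nrpd1+/-, by 1.87 to 2.47 times. The copper chaperone gene CCH was at 275 and 43.5, at 603 and 66.0, and at 528 and 528. AT5G22580, a stress-responsive barrel-domain gene, was at 20.5 and 2.97, at 1040 and 5.42, and at 907 and 1212. It stood at 0.521% of WT in mat nrpd1+/- and at 14.5% of a much lower WT value in nrpd1-/-.

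Some members have known roles in reproduction and division. EC1.2 encodes a small protein that the egg cell secretes to activate sperm, and was at 8.81 FPKM in WT and 0.710 in nrpd1-/-, at 84.2 and 3.35 in the mat table, and at 73.7 and 47.0 in the pat table. Its expressed relative EC1.3, not a member, was at 55.7%, 20.2% and 46.3% of WT. DMC1, the meiotic recombinase, was at 14.4 and 3.40, at 27.7 and 3.70, and at 24.5 and 26.1. EB1C, which binds growing microtubule ends, was at 111 and 19.4, at 152 and 31.2, and at 133 and 171. AT5G50345, whose sequence is given above, was at 3.64 and 0.153, at 43.7 and 0.389, and at 38.0 and 22.0, so that it stood at 57.9% of WT in pat nrpd1+/-. Enzymes of hormone and secondary metabolism included KAO2 of gibberellin synthesis, JMT, which methylates jasmonic acid, the spermidine hydroxycinnamoyl transferase SHT and the flavonol synthase FLS3. These were at 113%, 236%, 186% and 107% of WT in pat nrpd1+/-.

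Non-coding RNAs made up 17 members (12.2% against 3.38%), and 9 of these were small nucleolar RNAs (6.47% against 0.662%), which guide the modification of ribosomal RNA. SNOR108 was the most abundant by its lower WT value, at 376 FPKM in WT and 62.5 in nrpd1-/-, at 1387 and 303 in the mat table, and at 1205 and 1250 in the pat table. The RNA AT3G07315 was at 45.2 and 5.39, at 239 and 0.381, and at 209 and 267. AT1G04527, 84 bases long, was at 724 and 13.3, but at 19.7 and 0 in the mat table and at 17.1 and 0 in the pat table. The class was the least uniform, since 6 of the 17 were at or under 50% of WT in pat nrpd1+/- and AT2G05125 was at 3.44 times WT. Of all 378 expressed non-coding RNAs, 83 were at or under the rule's threshold in nrpd1-/-, 42 in mat nrpd1+/- and 14 in pat nrpd1+/-. At least 4-fold above WT were 7, 13 and 2 in the same order. Of the 11170 expressed genes, 355, 400 and 48 were at or under that threshold. Low values in this class were thus not confined to the members.

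The most abundant member by its lower WT value was AT3G55566, an uncharacterised gene of 99 bases at chr3:20608742-20608840 on the plus strand. It was at 3345 FPKM in WT and 432 in nrpd1-/-, at 8740 and 1752 in the mat table, and at 7619 and 4282 in the pat table, where it stood at 56.2% of WT. Its annotated transcript is shown whole because it is so short, with start and stop codons in capitals.
AT3G55566: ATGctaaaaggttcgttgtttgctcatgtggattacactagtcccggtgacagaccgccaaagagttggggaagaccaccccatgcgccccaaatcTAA

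Short transcripts were common among the members. The median transcript length was 944 bases against 1667 for expressed genes, 45 members (32.4%) were no longer than 500 bases against 4.43%, and 13 (9.35%) were no longer than 150 bases against 0.815%. FPKM divides by a length corrected for fragment size, and the part of transcript length in these values was not tested. The 19 uncharacterised members (13.7% against 8.67%), among them AT2G29628, AT3G01319 and AT3G48298 of 126 to 141 bases, had a median length of 378 bases. The 3 pseudogene members (2.16% against 0.734%), AT1G34250, AT4G10655 and RNR2B, were at 122% to 168% of WT in pat nrpd1+/-. In all, 38 members shared a locus in the files with another gene (27.3% against 33.6% of expressed genes), where reads cannot be assigned with certainty.

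By median, the 139 members were at 15.7% of WT in nrpd1-/- and at 10.8% in mat nrpd1+/-. Apart from the 4 genes without estimates, 8 members were listed at 0 in nrpd1-/- and 8 in mat nrpd1+/-, and AT1G26220, AT2G29628, AT3G01319 and AT3G06245 were listed at 0 in both. Just inside the threshold lay ENODL14 (22.1% of WT in nrpd1-/- and 24.8% in mat nrpd1+/-), AT5G62623 (14.6% and 24.9%) and AT5G45455 (8.80% and 24.99%). Just outside lay AT4G22250 (25.1% and 24.1%), the defensin-like AT5G37473 (25.3% and 12.1%) and AT1G11220 (23.7% and 25.3%). The values thus ran through the threshold without a gap.

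**Figure D2:**
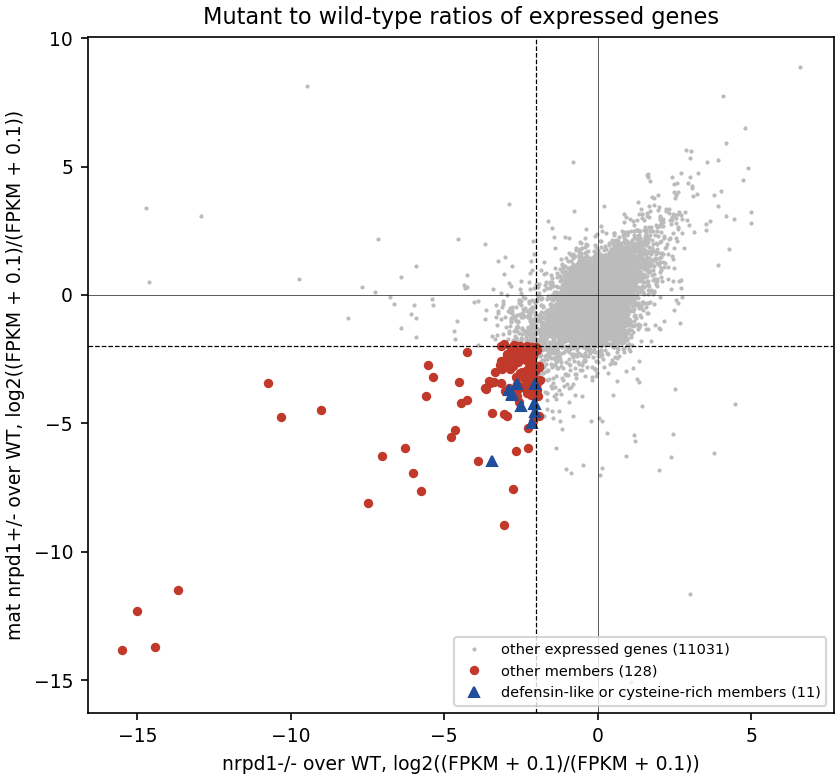
Log2 ratio of mutant to WT, with 0.1 FPKM added to both, in nrpd1-/- (horizontal) and mat nrpd1+/- (vertical) for 11170 expressed genes; dashed lines mark 25% of WT. The 139 members fill the lower left corner by the rule, the 11 defensin-like members (triangles) among them, and the 4 points at the far lower left are the genes whose zeros were not estimated.

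In pat nrpd1+/-, where the mother was wild type, the members stood near the WT of that table by their median. Against the WT of the nrpd1-/- table, scaled to the same median, their median log2 ratio was 1.22 in place of 0.10, while that of expressed genes was 0.02. The WT column of the pat table held the values of the mat table's WT up to a scale (the log2 ratio of these columns had an SD of 0.0059 over 15094 genes), so the pat ratio shares its denominator with the rule and is given as a description. The members' median was 107% of WT, or 110% over the 135 with estimates in every column, against 102% for expressed genes, which on the log2 scale is 0.10, 0.14 and 0.03. Below WT were 54 members (38.8%), against 48% of expressed genes. At least 2-fold above WT were 10 members (7.19%, background 1.69%), among them AT4G15750, AT2G05125, ELP, AT1G20730 and GILT. At or under 50% of WT were 12 members (8.63%, background 6.91%), and 9 of these were at or under 25% (background 0.43%).

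The 12 members low in pat nrpd1+/- were mostly short or shared transcripts. They included EPR1, SESA2 and SESA3. Another 6 were non-coding RNAs, namely AT1G04527, AT3G04305 and AT4G06010, which were listed at 0, and AT4G09885, AT5G04425 and AT5G08805, at 34.9%, 14.3% and 38.8% of WT. The last 3 were the uncharacterised genes AT2G29628 and AT3G01319, listed at 0, and AT3G48298, at 19.0%. Among the 97 members that were alone in their locus and had estimates throughout, 3 were at or under 50% (AT1G04527, AT4G06010 and AT4G09885).

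**Figure D3:**
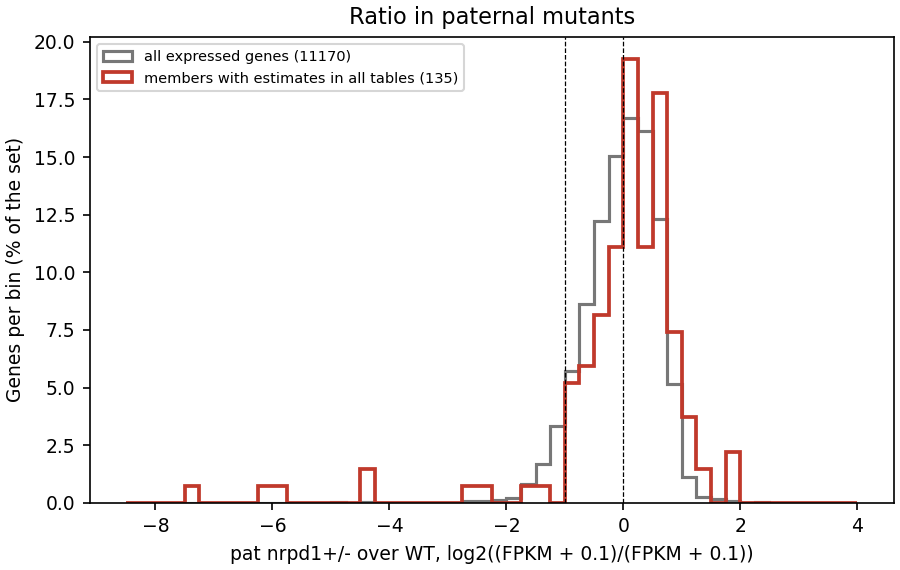
Share of genes in bins of 0.25 along the log2 ratio of pat nrpd1+/- to WT, with 0.1 FPKM added to both, for 11170 expressed genes (grey) and the 135 members with estimates in all tables (red); dashed lines mark WT and 50% of WT. The medians are 0.03 and 0.14, and 9 of the 135 members lie at or left of the 50% line.

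The WT pools of the nrpd1-/- and mat tables did not hold the members at the same level. Which WT libraries entered each pool is not stated. Over expressed genes the log2 ratio of the WT value in the nrpd1-/- table to that in the mat table had an SD of 1.10, and once its median was set to 0, 114 of the 139 members (82.0%) were lower in the nrpd1-/- table, with a median of -0.87. The same count over expressed genes is 50% by construction. Both WT columns entered the rule as floor and denominator, so the members' share describes genes chosen on these same values. The largest gaps in that direction were in AT5G22580, LCR28 and AT4G15750, at 20.5 against 1040 FPKM, 3.67 against 155 and 7.89 against 207. The other 25 members (18.0%) were higher in the nrpd1-/- table, with gaps as wide in the short genes AT1G04527, AT4G06010 and AT3G01319, at 724 against 19.7, 181 against 6.12 and 51.8 against 2.12. Because each mutant was compared with the WT of its own table, the members' ratios depend on which WT pool was used, and of the 139, 81 (58.3%) also met the rule when each mutant was set against the other table's WT.

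**Figure D4:**
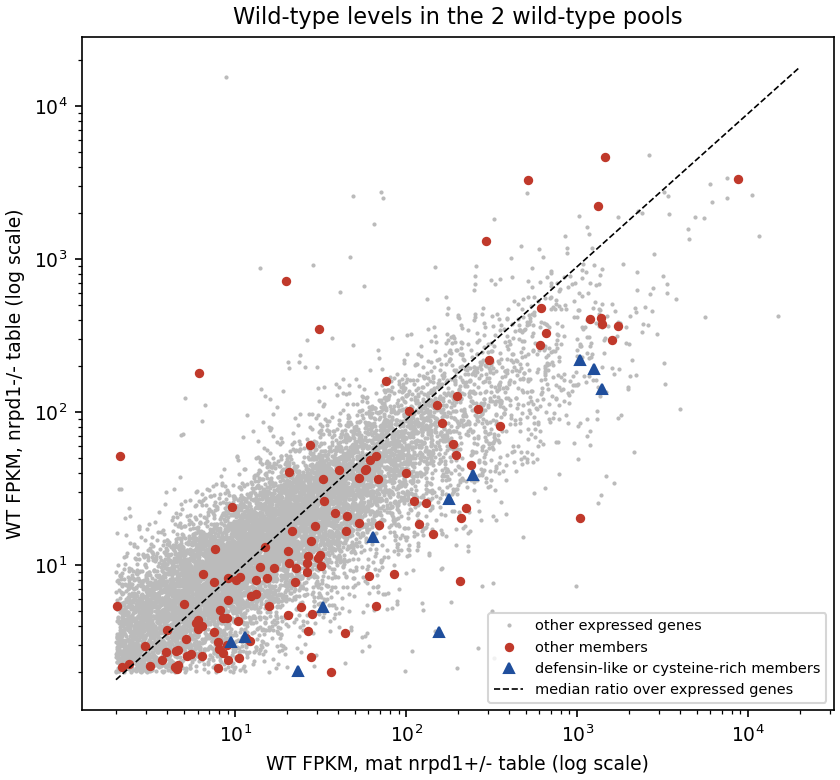
WT level in the mat table (horizontal) and in the nrpd1-/- table (vertical), both in FPKM on log axes, for expressed genes; the dashed line is the median ratio of both columns. Of the 139 members 114 lie below the line, including all 11 defensin-like members (triangles), and both axes are values the rule used.

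Genes with known stage-dependent expression also differed between these genotypes. Of 12 cell cycle genes 11 were expressed outside the regions, none was a member, and all 11 were below WT in nrpd1-/- (median log2 ratio -1.59) and in mat nrpd1+/- (-1.10), against 6 of 11 in pat nrpd1+/- (-0.16). The mitotic cyclin gene CYCB1;2, listed in RefSeq as CYC1BAT, was at 29.0 FPKM in WT and 6.42 in nrpd1-/-, at 48.1 and 13.5 in the mat table, and at 42.3 and 43.9 in the pat table. Seed maturation genes stood on the other side. Of the 14 expressed, 9 had estimates in nrpd1-/- with a median of 2.87 and 1 of 9 below WT, 11 had estimates in mat nrpd1+/- with a median of 3.09 and 1 of 11 below WT, and all 14 were below WT in pat nrpd1+/- (median -1.44). The cruciferin gene CRU2 was at 21.1 FPKM in WT and 2043 in nrpd1-/-, at 2.40 and 1162 in the mat table, and at 2.13 and 0.143 in the pat table. The oleosin gene OLEO2 was at 1416 and 8611, at 851 and 5260, and at 750 and 375. The lists thus moved in opposite directions in both maternal-mutant genotypes, and their part in the members' values was not tested.

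**Figure D5:**
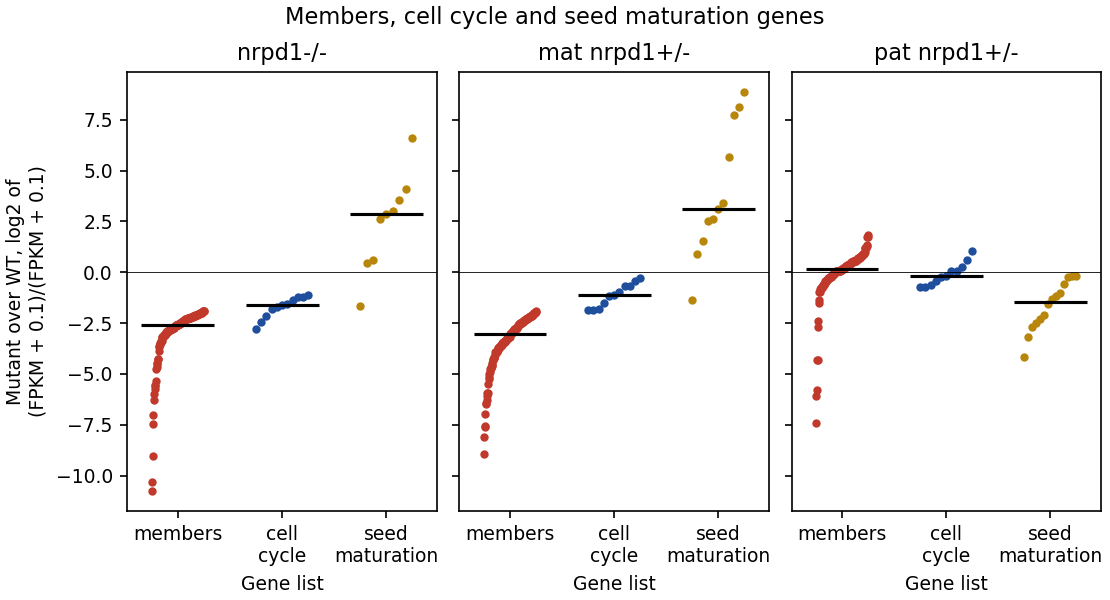
Log2 ratio of mutant to WT, with 0.1 FPKM added to both, in 3 genotypes for the 135 members with estimates, 11 cell cycle genes and the seed maturation genes with estimates in that table (9, 11 and 14); each point is a gene and bars are medians. Members lie below 0 by the rule in nrpd1-/- and mat nrpd1+/-, where the cell cycle genes are also all below 0 and the seed maturation medians are 2.87 and 3.09.

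Markers of the neighbouring seed tissues were mixed. Of 21 seed coat genes 15 lay outside the regions and 10 were expressed, with summed levels of the 15 at 363 FPKM in WT and 442 in nrpd1-/-, at 372 and 411 in the mat table, and at 327 and 494 in the pat table. Of the 10 expressed, 8 were below WT in nrpd1-/- (median log2 ratio -0.31), 4 in mat nrpd1+/- (0.08) and 4 in pat nrpd1+/- (0.56). The sum in nrpd1-/- was above WT through the chalcone synthase gene TT4, at 27.8 FPKM in WT and 184 in nrpd1-/-. In the WT columns of the nrpd1-/- and mat tables the seed coat transporter gene TT12 was at 0.157 and 0.0668. Other seed coat genes were far higher there, with TT10 at 101 and 53.6 and SBT1.7 (listed as ARA12) at 107 and 76.5. Of 19 embryo genes 13 lay outside the regions and 5 were expressed, with sums of 269 and 132, 562 and 139, and 494 and 745, most of it from LEC1, which was at 207 and 79.8, at 509 and 95.2, and at 448 and 695. Of the 5 expressed, 3 were below WT in nrpd1-/- (median log2 ratio -1.12), 3 in mat nrpd1+/- (-1.03) and 2 in pat nrpd1+/- (0.12). ATML1 was at 195% of WT in nrpd1-/- and 520% in mat nrpd1+/-, and SCR at 160% and 179%. The shoot meristem gene CLV3 was listed at 0 in every column, and CUC2 and DRNL at 0 in every WT column. Their relative CUC1 was at 27.0 and 31.4 FPKM in the WT columns of the nrpd1-/- and mat tables. Of 13 genes of RNA-directed DNA methylation 8 were expressed outside the regions and none of these was at or under 25% of WT in any table. Inside the regions lay 4 more. Of them ROS1 (listed as DML1) was at 75.6 FPKM in WT and 14.4 in nrpd1-/- (19.0%). It was at 191% of WT in mat nrpd1+/- and 26.2% in pat nrpd1+/-. NRPD1, NRPE1 and DME were above 25% in every table. No member came from the seed coat, embryo, cell cycle or methylation lists, HDG3 was the one from the endosperm list, and SESA2 and SESA3 were those from the seed maturation list. The part of other tissues in the members' values was not tested.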

How the data were processed

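mRNA-seq of Arabidopsis endosperm was read from 3 gene tables, each comparing WT with nrpd1-/-, mat nrpd1+/- or pat nrpd1+/-. Per the submitters' notes the authors trimmed reads with Trim Galore, aligned them with TopHat to TAIR10 and ran Cuffdiff 2.2.1. The deposited values are FPKM, pooled by the authors over the libraries of a genotype, so 1 value per genotype and table. Columns holding the authors' own fold changes, test statistics, p-values and significance calls were not used. The status column served only to recognise skipped loci. A deposited list of 12 regions (other values: coordinates) was used to leave out genes in residual Col-0 sequence. The mat and pat tables share their WT values up to a scale.

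Members had WT of at least 2 FPKM in the nrpd1-/- and mat tables and a mutant value at or under 25% of that WT. Log2 ratios add 0.1 FPKM. No test was possible. The members and gene lists were chosen with earlier results of these data known. Named genes were the 10 with the highest WT level, the 10 with the lowest larger ratio (the 4 skipped genes described apart), members of lists or of product classes with 3 or more members, the 5 highest and 5 lowest in pat, and 3 genes on each side of the threshold; other genes named were chosen after their values were seen. Product classes follow words in RefSeq product names. All 139 members matched RefSeq TAIR10.1, whose coordinates equal those of the files for 26789 of 26795 genes alone in their locus. Python 3.11.15, pandas 2.3.3 and matplotlib 3.10.9 were used. The code was also run on simulated ratios without noise, placed on either side of 25%. That placing fixed the outcome, so the run checked the code and not the rule. Alternatives changed the floor, the ratio, the scaling, the pseudocount and the WT column.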

Additional observations from a re-analysis of the deposited data

How the results depend on the processing

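The number of members was 139 at the settings used, 593 with a mutant level of at most 50% of WT and 35 with at most one eighth. It stayed within 1.5 times under the other settings: 180 with a floor of 1 FPKM, 93 with a floor of 5, 174 with the Col-0 regions included, 124 with rescaled mutants and 103 against the other table's WT. The median pat log2 ratio was 0.10 and became 1.22 against the WT of the nrpd1-/- table, where expressed genes had 0.02; the other settings gave 0.05 to 0.14. Members at or under 50% of WT in pat were 12 (8.63%, background 6.91%), and 3 of the 97 alone in their locus with estimates throughout. Against the WT of the nrpd1-/- table they were 16, but 23.6% of expressed genes (2639) were then at or under 50%. The count thus cannot be read without that background, and the other settings gave 9 to 13. The WT difference between pools, -0.87, was -1.07 for members alone in their locus and -1.15 when the skipped genes were also left out. Defensin-like members were 11, 7 with a floor of 5 FPKM and 30 with at most 50% of WT, and 5 of the 11 met the rule against the other table's WT. Settings that left out skipped genes or members in shared loci, those on classes and the promoter window were chosen after seeing the data. The cause of these changes was not tested. No paired analysis was possible because each column is 1 value pooled by the authors, so neither a replicate block nor leaving out a replicate could be run.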
